A study of Mus musculus with 15 samples.

Results

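The genes described here are Dbp, Tef and Hlf, the 3 proline- and acidic amino acid-rich basic leucine zipper (PAR bZIP) transcription factors of liver, their repressing relative Nfil3, and 4 genes tied to the output of the circadian clock, which are Usp2, Gm129 (now Ciart), Bhlhe40 and Bhlhe41. They are 8 of the 22032 genes that the array names by symbol, and 10 of its 29522 probes with a gene symbol. All 8 were measured. They were chosen from earlier results on the differences between the groups of these same arrays, so those differences are given below as a description, with no p-value, and the number of members called is set beside the share of all genes called.

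Liver RNA was hybridised to single-colour microarrays, on which the brightness of a spot stands for the amount of 1 transcript. The mice were male CD1 animals, given as 10 weeks old in the sample records, while the study's methods describe livers taken at a later age, after tumors had grown. Mice of the Control group had received saline and then the empty plasmid by hydrodynamic gene delivery (HGD), a rapid injection into the tail vein that carries DNA into part of the liver cells, mostly near vessels. Mice of the DEN group had received diethylnitrosamine (DEN), a carcinogen that gives rise to liver tumors, in infancy, and later the same empty plasmid. Mice of the Gas1 group had received DEN and then a plasmid with the growth arrest gene Gas1 under the CAG promoter, which is active in most cell types. HGD with a plasmid was thus shared by all mice and DEN by both treated groups. The time of day at which the livers were taken is not given in the sources used here. Whole liver RNA was measured, so that fewer cells of a type and less RNA per cell cannot be told apart.

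There were 15 arrays, and they were taken as 13 livers, 3 of the Control, 4 of the DEN and 6 of the Gas1 group. Control arrays 3 and 4 carried 1 RNA code, and so did DEN arrays 4 and 5, though the sample titles number each array separately. Each pair was taken as 1 liver, averaged, and is written Control 3/4 and DEN 4/5. Between arrays of 1 code the SD of the log2 differences over 7848 genes was 0.145 and 0.142, and between other arrays of 1 group it was at least 0.210. The p-values below measure only the spread between these livers. The arrays lay on 2 slides, each with arrays of all 3 groups. Between 15707 and 29765 spots per array were well above background. The array signal named Gas1, the delivered gene, was between 6.31 and 6.67 in Control and between 6.41 and 6.61 in DEN livers on the log2 scale. It was between 6.49 and 6.79 in Gas1 livers (Gas1 minus DEN 0.08, SE 0.08, limma adjusted p = 0.765). Whether this signal reads the transcript of the plasmid was not tested. By other methods the paper found RNA and protein of the tagged Gas1 in liver after HGD, with RNA that declined over time. All 6 hepatocyte markers were well above background on all 15 arrays.

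In the circadian clock, the proteins CLOCK and BMAL1 (the product of Arntl) bind E-boxes, short DNA elements of the sequence CACGTG, and switch on Per, Cry, Nr1d1, Nr1d2 and Dbp. The PER and CRY proteins then hold CLOCK and BMAL1 back, and the receptors encoded by Nr1d1 and Nr1d2 repress Arntl and Nfil3 through elements with the core TAGGTCA (RORE). DBP, TEF and HLF activate genes through D-boxes, and NFIL3 binds the same elements and represses them. In liver these factors are known for a strong daily rhythm of their RNA and for the control of enzymes of drug and lipid metabolism.

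The promoters of the members were taken from RefSeq, build GRCm38.p6, each as 250 bases before and 50 after a gene start. A window was held for 7 of the 8 members, 8 windows in all, and none was held for Bhlhe40. Both strands were searched for the E-box CACGTG, the D-box TTATGTAA or TTACGTAA and the RORE core TAGGTCA, and no searched motif overlapped another. The E-box was present in 4 windows of 3 members (both windows of Tef, Gm129 with 3 copies, and Bhlhe41), against 7.15% of all 32851 windows. The RORE core was present in Nfil3 alone among the members, against 2.61% of all windows. No member window held either D-box, which 1.06% of all windows held. The letters searched are not in the windows of Dbp, Hlf and Usp2. The 250 bases before the start are printed below for Dbp and Tef, which had the higher signal in the treated groups, for Nfil3, which ran against them, and for Gm129, which held the E-box 3 times. Capitals mark the motif found, and in Nfil3 they read the RORE core on the other strand.
Dbp, chr7:45704997-45705246 (+ strand): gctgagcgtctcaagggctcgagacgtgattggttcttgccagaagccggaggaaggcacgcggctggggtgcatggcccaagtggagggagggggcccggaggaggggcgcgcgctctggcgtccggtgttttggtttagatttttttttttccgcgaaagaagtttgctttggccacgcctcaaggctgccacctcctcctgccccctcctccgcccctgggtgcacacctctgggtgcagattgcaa
Tef, upstream start, chr15:81802423-81802672 (+ strand): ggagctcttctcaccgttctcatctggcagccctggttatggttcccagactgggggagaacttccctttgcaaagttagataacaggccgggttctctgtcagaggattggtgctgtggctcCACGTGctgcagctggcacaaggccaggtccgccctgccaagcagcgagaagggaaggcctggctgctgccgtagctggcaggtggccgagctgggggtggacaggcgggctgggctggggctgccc
Tef, downstream start, chr15:81811164-81811413 (+ strand): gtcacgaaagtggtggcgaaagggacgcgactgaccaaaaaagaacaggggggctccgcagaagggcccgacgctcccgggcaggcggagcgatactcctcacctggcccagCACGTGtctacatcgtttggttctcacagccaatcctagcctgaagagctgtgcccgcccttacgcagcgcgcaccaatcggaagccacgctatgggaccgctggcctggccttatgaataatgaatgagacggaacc
Nfil3, chr13:52981040-52981289 (- strand): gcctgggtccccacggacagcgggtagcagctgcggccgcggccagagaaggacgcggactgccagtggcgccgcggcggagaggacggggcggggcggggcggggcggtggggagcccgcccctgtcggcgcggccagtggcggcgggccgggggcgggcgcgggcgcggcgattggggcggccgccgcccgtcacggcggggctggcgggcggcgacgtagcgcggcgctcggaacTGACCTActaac
Gm129 (Ciart), chr3:95882229-95882478 (- strand): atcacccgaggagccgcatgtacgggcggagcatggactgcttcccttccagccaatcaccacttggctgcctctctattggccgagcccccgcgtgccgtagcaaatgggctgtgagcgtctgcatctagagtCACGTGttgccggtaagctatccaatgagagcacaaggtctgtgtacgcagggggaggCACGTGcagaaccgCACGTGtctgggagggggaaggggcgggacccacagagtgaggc

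Of the 8 members, the PAR bZIP genes and Usp2 were higher in DEN and Gas1 livers than in Control livers, and Nfil3 was lower. Dbp showed the largest difference, 13.1-fold in DEN and 19.5-fold in Gas1 livers over Control. Tef was 2.87-fold and 3.20-fold higher, and Hlf 1.62-fold and 1.63-fold. Usp2 was 3.37-fold and 3.65-fold higher than a Control signal that was well above background in Control 3/4 alone, and these folds depend on how the background is treated. Nfil3 was 1.74-fold and 1.98-fold lower. Bhlhe40 had the same mean in Control and DEN livers to within 0.01 on the log2 scale, and Gm129 and Bhlhe41 gave signals near the background. Between the DEN and the Gas1 group no member had groups that were apart.

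**Figure D1:**
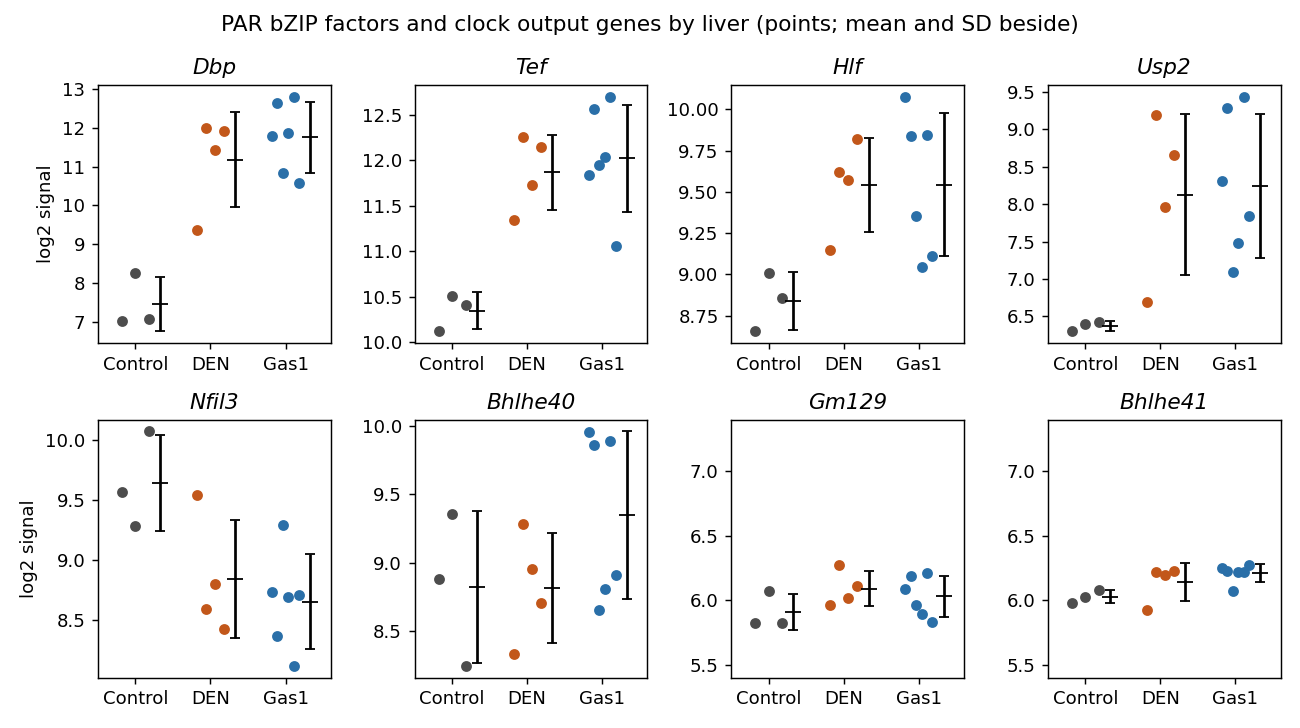
The log2 signal (vertical axis, a separate scale for each gene except the shared one of Gm129 and Bhlhe41) of the 8 genes in each liver of the Control, DEN and Gas1 groups (points), with the group mean and SD beside them (bars). The Control livers lie below all others for Dbp, Tef, Hlf and Usp2, and DEN 1 is the lowest DEN liver for each of these genes and the highest for Nfil3.

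Dbp, the founding member of the PAR bZIP factors, was measured by 2 probes, at chr7:52965322-52965381 and chr7:52965461-52965520 (mm9, plus strand). The log2 signal of Dbp was 7.04, 8.27 and 7.08 in Control livers 1, 2 and 3/4. In DEN livers 1, 2, 3 and 4/5 it was 9.37, 11.99, 11.44 and 11.91. In Gas1 livers 1 to 6 it was 11.78, 12.65, 10.82, 11.86, 12.80 and 10.58. All treated livers lay above all Control livers, and DEN 1 stood between the Control livers and the rest. The mean was 7.46 ± 0.70 (SD, n = 3) in Control, 11.18 ± 1.23 (n = 4) in DEN and 11.75 ± 0.91 (n = 6) in Gas1 livers. The log2 difference was 3.71 (SE 0.67) for DEN minus Control, 4.29 (SE 0.62) for Gas1 minus Control and 0.57 (SE 0.56) for Gas1 minus DEN. The probes agreed, with DEN minus Control at 3.85 and 3.58, and both were well above background on every array.

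Tef, the thyrotroph embryonic factor, was measured by 1 probe at chr15:81657221-81657280 (mm9, plus strand), and its promoter windows both hold the E-box shown above. The log2 signal of Tef was 10.12, 10.51 and 10.41 in Control livers 1, 2 and 3/4. It was 11.34, 12.25, 11.72 and 12.15 in DEN livers 1, 2, 3 and 4/5. It was 11.84, 12.57, 11.94, 12.04, 12.70 and 11.05 in Gas1 livers 1 to 6. Every treated liver lay above every Control liver, and the lowest of them were Gas1 6 and DEN 1. The log2 difference was 1.52 (SE 0.33) for DEN minus Control, 1.68 (SE 0.31) for Gas1 minus Control and 0.16 (SE 0.28) for Gas1 minus DEN.

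Hlf, the hepatic leukemia factor, was measured by 1 probe at chr11:90200696-90200755 (mm9, minus strand). The log2 signal of Hlf was 8.66, 9.01 and 8.86 in Control livers 1, 2 and 3/4. It was 9.15, 9.62, 9.57 and 9.82 in DEN livers 1, 2, 3 and 4/5. It was 10.08, 9.84, 9.35, 9.05, 9.84 and 9.11 in Gas1 livers 1 to 6. The groups did not overlap with Control, but the highest Control liver at 9.01 and the lowest Gas1 liver at 9.05 nearly met. The log2 difference of Hlf was 0.70 (SE 0.24) for DEN minus Control, 0.70 (SE 0.22) for Gas1 minus Control and 0.00 (SE 0.20) for Gas1 minus DEN, a smaller step than those of its relatives.

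Nfil3, which encodes the repressor at D-boxes, was measured by 1 probe at chr13:53062578-53062637 (mm9, minus strand). The log2 signal of Nfil3 was 9.56, 9.28 and 10.07 in Control livers 1, 2 and 3/4. It was 9.54, 8.59, 8.80 and 8.43 in DEN livers 1, 2, 3 and 4/5. It was 8.73, 8.37, 9.29, 8.69, 8.12 and 8.70 in Gas1 livers 1 to 6. DEN 1 and Gas1 3 reached into the range of the Control livers, and all other treated livers lay below it. The log2 difference was −0.80 (SE 0.29) for DEN minus Control, −0.99 (SE 0.27) for Gas1 minus Control and −0.19 (SE 0.25) for Gas1 minus DEN. The direction depended on the scaling between arrays. When arrays were scaled to 1 median instead of quantile normalized, the DEN minus Control difference of Nfil3 was 0.08, where the median of all genes stood at 0.12, and Gas1 minus Control was −0.19. With the processed signal of the scanner software it was −0.75 and −1.10, where the median of all genes stood at −0.40 and −0.30. Dbp, Tef, Hlf and Usp2 were higher in both treated groups under each of these scalings and under cyclic loess, but their sizes moved. With median scaling, DEN minus Control and Gas1 minus Control were 2.50 and 2.52 for Tef, 1.57 and 1.46 for Hlf and 4.43 and 4.86 for Dbp.

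Usp2, which encodes a ubiquitin-specific protease, was measured by 1 probe at chr9:43903649-43903708 (mm9, plus strand). The log2 signal of Usp2 was 6.30, 6.39 and 6.43 in Control livers 1, 2 and 3/4. It was 6.69, 9.20, 7.96 and 8.66 in DEN livers 1, 2, 3 and 4/5. It was 8.31, 9.29, 7.10, 7.48, 9.44 and 7.84 in Gas1 livers 1 to 6. The Control livers were close together at the low end of the scale and the treated livers were spread, with DEN 1 nearest to Control. The Control signal was well above background on 2 of 4 arrays, and the DEN and Gas1 signal on all 5 and 6. The log2 difference of Usp2 was 1.75 (SE 0.61) for DEN minus Control, 1.87 (SE 0.57) for Gas1 minus Control and 0.11 (SE 0.52) for Gas1 minus DEN. With the processed signal, to which no offset is added, it was 3.04 and 3.20 against Control.

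Bhlhe40, which encodes a basic helix-loop-helix repressor that binds E-boxes, was measured by 1 probe at chr6:108616309-108616368 (mm9, plus strand). The log2 signal of Bhlhe40 was 8.88, 9.35 and 8.24 in Control livers 1, 2 and 3/4. It was 8.33, 9.28, 8.95 and 8.70 in DEN livers 1, 2, 3 and 4/5. It was 9.95, 9.86, 8.65, 8.81, 9.89 and 8.91 in Gas1 livers 1 to 6. The groups overlapped, and the Gas1 livers split into 3 high and 3 low ones. The log2 difference was −0.01 (SE 0.37) for DEN minus Control, 0.53 (SE 0.31) for Gas1 minus DEN and 0.52 (SE 0.34) for Gas1 minus Control. With median scaling the values against Control were 0.86 and 1.32.

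Gm129, a repressor of CLOCK and BMAL1 whose window holds the E-box 3 times, was measured by 1 probe at chr3:95682433-95682492 (mm9, minus strand). Gm129 lay between 5.82 and 6.07 in Control, between 5.96 and 6.27 in DEN and between 5.83 and 6.21 in Gas1 livers on the log2 scale. It was well above background on 1 array, that of Gas1 5, so no fold is given. Bhlhe41, the close relative of Bhlhe40, was measured by 2 probes, at chr6:145811275-145811334 and chr6:145812652-145812711 (mm9, minus strand). Bhlhe41 lay between 5.98 and 6.08 in Control, between 5.93 and 6.23 in DEN and between 6.07 and 6.27 in Gas1 livers. It was well above background on 1 of 4 Control, 1 of 5 DEN and 3 of 6 Gas1 arrays, so no fold is given for it either.

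**Figure D2:**
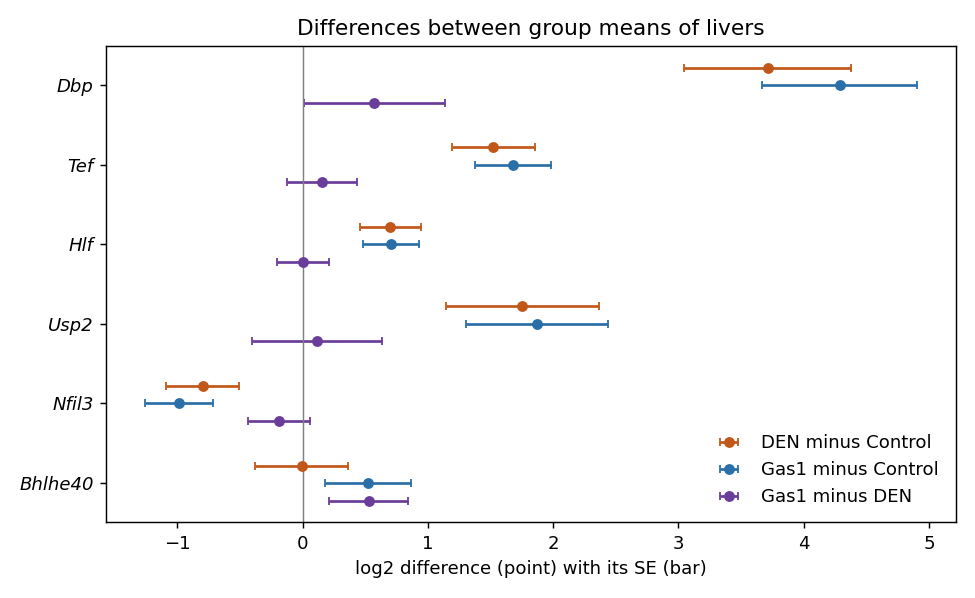
The log2 difference between group means of livers (points, horizontal axis) with its SE (bars), for DEN minus Control, Gas1 minus Control and Gas1 minus DEN. Drawn are the 6 members well above background on every DEN and Gas1 array, with Usp2 so on only 2 of 4 Control arrays. Both differences from Control are largest for Dbp, at 3.71 and 4.29, and those between Gas1 and DEN reach at most 0.57 in size among the genes drawn.

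Across all genes, limma called 2.37% of 22032 at an adjusted p under 0.05 for DEN minus Control, 259 higher and 264 lower, 0.427% for Gas1 minus Control and 0.132% for Gas1 minus DEN. With median scaling the DEN minus Control calls were 2861 higher and 15 lower. Dbp and Tef were called in both comparisons with Control, 2 of 8 members each. As these comparisons chose the members, nothing is read from that count. Neither gene was called with Control livers 1 and 2 left out. Cyclic loess and the processed signal ended both calls of Tef and that of Dbp for Gas1 minus Control, and median scaling ended the calls for Gas1 minus Control and added Hlf and Usp2 for DEN minus Control. The call of Dbp for DEN minus Control was lost without Control 1, DEN 3 or DEN 4/5, and for Gas1 minus Control without Control 1 or Gas1 2, and the log2 difference stayed between 3.44 and 4.31 and between 4.07 and 4.69. The call of Tef for DEN minus Control was lost without any 1 of the Control livers or of DEN 2, 3 and 4/5, and for Gas1 minus Control it was kept only without DEN 1 or without Gas1 6, with log2 differences between 1.39 and 1.70 and between 1.54 and 1.87. No member was called for Gas1 minus DEN by limma, and none had an unadjusted p under 0.05. For 4 of 8 members, Dbp, Tef, Hlf and Usp2, no DEN liver overlapped the Control livers, which held for 19.1% of all genes, and no Gas1 liver did either, which held for 5.95%. For none of the members were the DEN and Gas1 livers apart, which held for 3.1% of all genes.

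The slides were compared next, as each held arrays of all groups. On slide 1 the DEN minus Control difference of Dbp was 4.27 and on slide 2 it was 3.82, and Gas1 minus Control was 3.47 and 5.29. Tef, Hlf and Usp2 were likewise higher than Control on both slides, and Nfil3 was lower. Gas1 minus DEN had opposite signs on the slides, −0.80 and 1.47 for Dbp, −1.43 and 1.23 for Usp2 and −0.17 and 1.22 for Bhlhe40. The 3 Gas1 livers on slide 2 (1, 2 and 5) and the 3 on slide 1 (3, 4 and 6) did not overlap for 4 of the 8 members, which held for 10.8% of all genes. Bhlhe40 was between 9.86 and 9.95 on slide 2 and between 8.65 and 8.91 on slide 1. Hlf was between 9.84 and 10.08 on slide 2 and between 9.05 and 9.35 on slide 1. Usp2 was between 8.31 and 9.44 against between 7.10 and 7.84, and Gm129, near the background, was the fourth. The RNA that was hybridised on both slides differed less. From slide 1 to slide 2, Bhlhe40 rose by 0.20 in Control 3/4 and by 0.11 in DEN 4/5 on the log2 scale, Hlf by 0.12 and 0.16, and Dbp by 0.23 and 0.22. Usp2 differed by −0.01 and 0.09, and Nfil3 by 0.01 and 0.02.

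**Figure D3:**
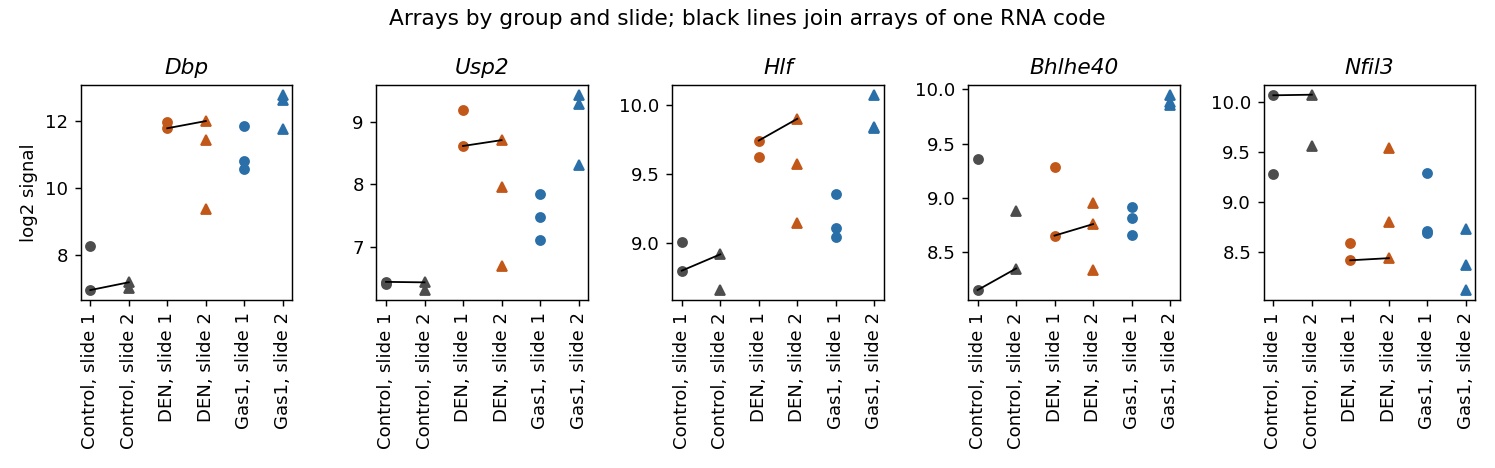
The log2 signal (vertical axis, own scale for each gene) of every array for 5 members, by group and slide (horizontal axis; circles slide 1, triangles slide 2), with black lines joining the arrays of 1 RNA code. The Gas1 arrays of slide 2 lie above those of slide 1 for Usp2, Hlf and Bhlhe40, and the joined arrays differ by at most 0.23 in the genes drawn.

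The members also varied among livers of 1 group, a difference that the choice of members did not use. Each group's mean was taken away, and the correlation with Dbp was computed over the 13 livers for each of 9810 other genes that were well above background on every array of at least 1 group and had a value in every liver. Usp2 passed through its DEN and Gas1 arrays. The livers share slides and hybridisations, and genes are not independent, so r is a description. The r with Dbp within groups was 0.85 for Tef (Spearman's rho 0.90), 0.85 for Usp2 (0.82), 0.70 for Hlf (0.71) and 0.74 for Bhlhe40 (0.66). For Nfil3 it was −0.87 (−0.85). An r at least as far from 0 was seen for 0.183% of the genes in the case of Tef, 0.214% for Usp2 and 0.122% for Nfil3. For Hlf it was about 1.7% and for Bhlhe40 about 1.05%. Gm129 had an r of 0.82 and Bhlhe41 of 0.65, both over signals near the background. In the Control livers, where Usp2 lay near the background, it did not follow Dbp, as Control 2 had the most Dbp (8.27) and Control 3/4 the most Usp2 (6.43).

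Arntl, which encodes BMAL1, had the most negative r of all 9810 genes, −0.96 (rho −0.95). Its log2 signal was 8.10, 7.65 and 8.01 in Control livers 1, 2 and 3/4. It was 7.72, 6.47, 6.76 and 6.57 in DEN livers 1, 2, 3 and 4/5. It was 6.72, 6.35, 7.17, 6.93, 6.33 and 6.98 in Gas1 livers 1 to 6. DEN 1, the DEN liver with the least Dbp, had the most Arntl of its group, and Gas1 5, with the most Dbp of all livers, had the least Arntl. DEN 1 and Gas1 6 lay farthest from the median of Dbp once group means were taken away. They were then left out, with the group means still those over all livers. The r without them was −0.96 for Arntl, 0.79 for Tef, 0.81 for Usp2 and −0.91 for Nfil3. Within slides, over 15 arrays in which 2 RNAs count once on each slide, it was −0.94, 0.75, 0.75 and −0.81. For Hlf it fell to 0.525 without those livers and to 0.55 within slides, and for Bhlhe40 it was 0.72 and 0.53. With median scaling it was −0.70, 0.71, 0.85 and −0.43, and Arntl then ranked 9 from the most negative.

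**Figure D4:**
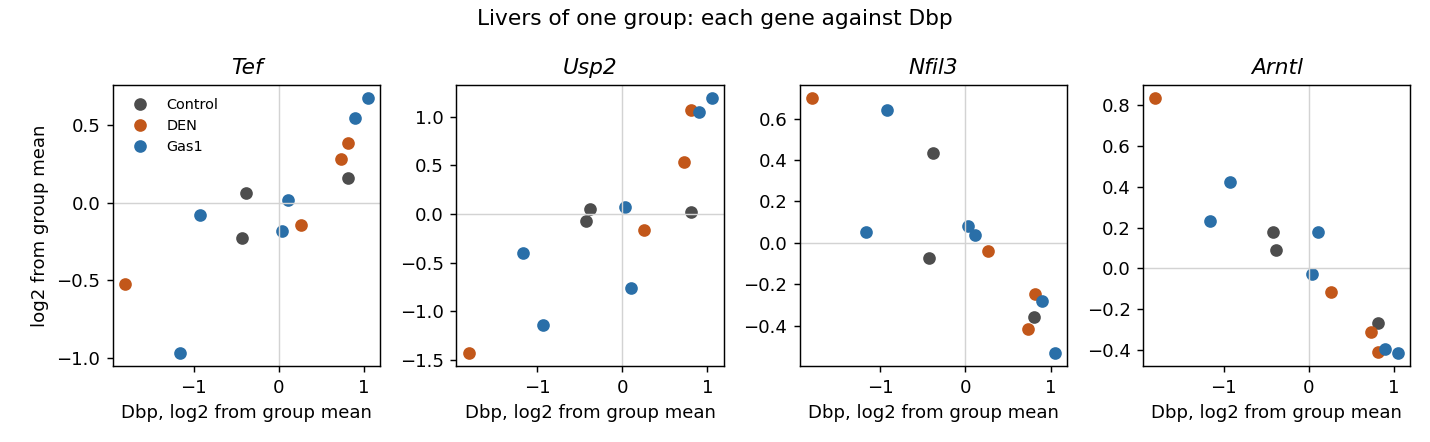
The distance of each liver from its group mean on the log2 scale, for Tef, Usp2, Nfil3 and Arntl (vertical axes) against Dbp (horizontal axis); each point is 1 of 13 livers, coloured by group. Tef and Usp2 rise with Dbp and Nfil3 and Arntl fall, with r at 0.85, 0.85, −0.87 and −0.96.

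The 10 genes most like Dbp within groups were Nrg4 (r 0.92), Adarb1 (0.90), Gne (0.88), Acap3 (0.87), Slc2a5 (0.87), Per1 (0.86), Klf13 (0.85), Coq10b (0.85), Tef (0.85) and Atr (0.85). Nrg4 encodes a secreted growth factor, Slc2a5 a fructose transporter and Per1 a clock repressor. Next to Arntl at the negative end stood Chka (−0.94), which encodes choline kinase, and Mtnr1a (−0.93), which encodes a melatonin receptor, and Nfil3 ranked 7. With the differences between groups left in, the 10 most like Dbp were Tef (r 0.96), Gm14440 (0.92), LOC664987 (0.90), Phf17 (0.90), Usp2 (0.89), Nr1d2 (0.89), Acap3 (0.88), Klf13 (0.88), Stbd1 (0.88) and Pck1 (0.87). The Control livers lay apart from the rest for Dbp, so the second ranking rests largely on the groups that chose Dbp.

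Of 15 core clock genes, a list drawn up with earlier results of these data known, limma called 2 higher and none lower for DEN minus Control, 1 higher for Gas1 minus Control and none for Gas1 minus DEN. Their median log2 difference was 0.08, 0.05 and 0.02, beside 0.01, −0.00 and −0.01 for all genes. The called genes were those of the REV-ERB repressors. Nr1d1 was between 6.29 and 7.16 in Control, between 7.51 and 8.04 in DEN and between 8.23 and 8.47 in Gas1 livers, and the 3 groups were apart. Nr1d1 rose by 0.97 (SE 0.18, limma adjusted p = 0.0224) in DEN and by 1.49 (SE 0.17, adjusted p = 0.0224) in Gas1 over Control on the log2 scale. The first call was lost without DEN 3 or DEN 4/5 (adjusted p up to 0.0724), and the second held without any 1 liver. Both were lost with the processed signal and without Control livers 1 and 2, and the second also with median scaling (adjusted p up to 0.294 and 0.103). Gas1 minus DEN for Nr1d1 was 0.52 (SE 0.16, adjusted p = 0.229), and the next largest in the list was Per3 at 0.31 (SE 0.28, adjusted p = 0.742), with Gas1 6 left out of Per3 as its spot was an outlier. Nr1d2 rose by 0.96 (SE 0.22, adjusted p = 0.041) in DEN, and 0.87 was its value for Gas1 minus Control (SE 0.20, adjusted p = 0.0861). The call of Nr1d2 was lost without Control 1, 2 or 3/4, DEN 2, 3 or 4/5, or Gas1 3, 4 or 5 (adjusted p up to 0.151), and with cyclic loess, the processed signal or Control livers 1 and 2 left out (up to 0.444).

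Arntl itself had log2 differences from Control of −1.04 (SE 0.28, adjusted p = 0.0678) and −1.17 (SE 0.26, adjusted p = 0.0747). Clock was at −0.00 (SE 0.11, adjusted p = 0.994) and −0.07 (SE 0.11, adjusted p = 0.831). An unadjusted p under 0.05 was seen for 8 of 15 core clock genes in DEN minus Control beside 20.2% of all genes, for 8 in Gas1 minus Control beside 13.3%, and for 1 in Gas1 minus DEN beside 10.8%. Within groups, Per1 (r 0.86) and Per2 (0.73) ran with Dbp and Npas2 (−0.83), a relative of Clock near the background, ran against it. Nr1d1, with an r of 0.06, did not follow Dbp among livers of 1 group.

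Of 17 genes known or proposed as targets of the PAR bZIP factors, 16 were measured, and limma called 1 lower and none higher for DEN minus Control and none in the other comparisons. Cyp2a5 was not named on the array. At an unadjusted p under 0.05 the counts were 4 of 16 for DEN minus Control, 5 for Gas1 minus Control and 3 for Gas1 minus DEN, beside 20.2%, 13.3% and 10.8% of all genes. Of the 16, 8 had a higher and 8 a lower mean in DEN than in Control livers, and the median log2 difference was −0.08 beside 0.01 for all genes. The called gene was Acot1, an acyl-CoA thioesterase, which fell by 1.76 (SE 0.34, limma adjusted p = 0.0229) on the log2 scale in DEN livers. Acot1 was between 8.85 and 9.54 in Control, between 6.53 and 8.33 in DEN and between 8.43 and 9.25 in Gas1 livers, and its Gas1 minus DEN difference was 1.29 (SE 0.28, adjusted p = 0.107). The call was lost without Control 2 or 3/4 or without DEN 3 or 4/5 (adjusted p up to 0.0724), and with median scaling, the processed signal or Control livers 1 and 2 left out (up to 0.294). Among the others the largest for Gas1 minus DEN was Cyp2b10, a cytochrome P450 of drug metabolism, at 0.64 (SE 0.53, adjusted p = 0.718). For Gas1 minus Control the largest were Cyp2b10 at −1.44 (SE 0.58, adjusted p = 0.309) and Cyp2a4, another cytochrome P450, at 0.98 (SE 0.54, adjusted p = 0.473). For DEN minus Control they were at −2.08 (SE 0.63, adjusted p = 0.0953) and 1.26 (SE 0.59, adjusted p = 0.251).

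**Figure D5:**
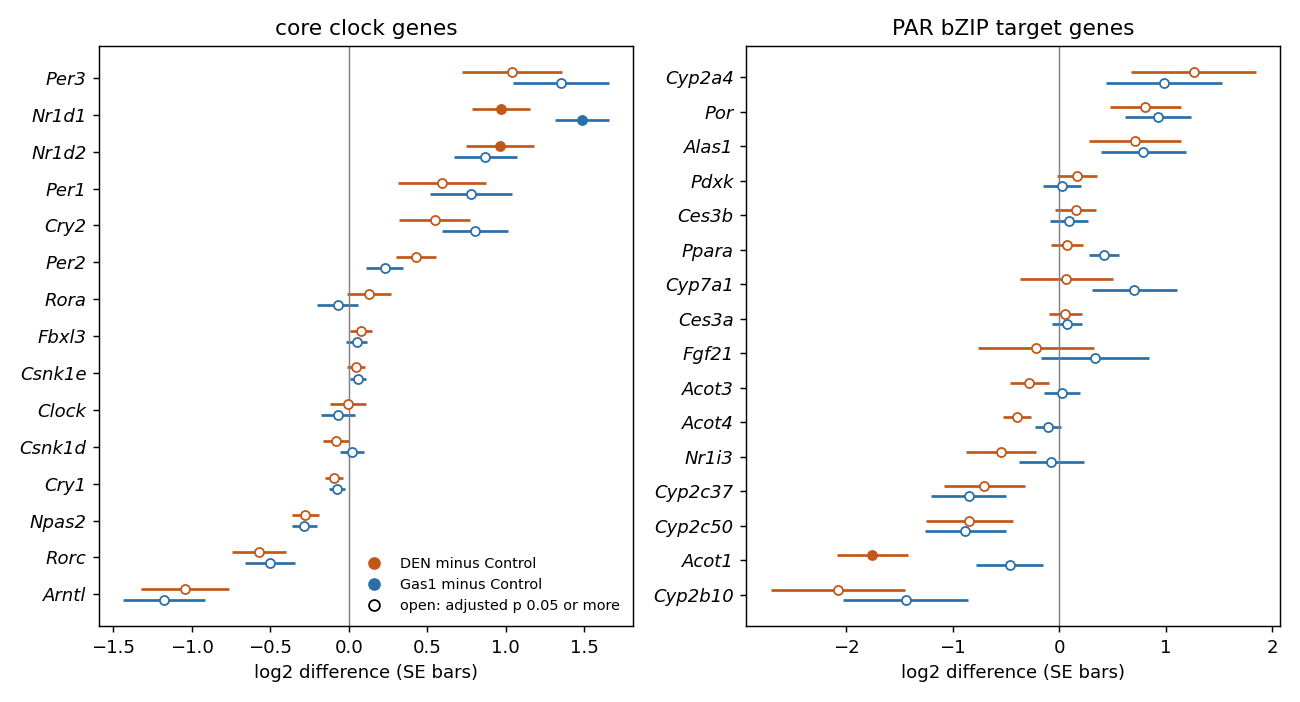
The log2 difference from Control (horizontal axis; points with SE bars) of 15 core clock genes and 16 target genes of the PAR bZIP factors, in DEN and Gas1 livers, with filled points at an adjusted p under 0.05. Filled points are Nr1d1 in both groups and Nr1d2 and Acot1 in DEN livers, and the target genes lie on both sides of 0, while Per3 was not well above background on any Control array, so its points stand against a signal at background.

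Markers of other cell types were set beside these values. The mean log2 level of the 6 leukocyte and Kupffer cell markers was between 6.93 and 7.16 in Control, 7.09 and 7.21 in DEN and 6.98 and 7.23 in Gas1 livers. That of the 6 hepatocyte markers was between 14.98 and 15.16, 14.81 and 15.08, and 14.76 and 15.33. For DEN minus Control limma called 1 hepatocyte marker lower, 1 leukocyte marker higher and both tumor markers, Afp and Gpc3, higher, with the mean of the last between 5.98 and 6.16 in Control, 6.84 and 7.89 in DEN and 6.30 and 7.24 in Gas1 livers. No endothelial, stellate or cholangiocyte marker was called in any of the 3 comparisons. Only 2 of 4, 2 of 4 and 1 of 4 of these were well above background on every array of at least 1 group. The same held for 4 of the 6 leukocyte and Kupffer cell markers. For DEN minus Control all 4 cholangiocyte and all 4 stellate markers had a lower mean, and 2 of 4 endothelial ones. At a limma unadjusted p under 0.05 there were 3, 1 and 1 of these, beside 20.2% of all genes. The part of these markers in the differences of the members was not tested.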

How the data were processed

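RNA taken to come from 13 livers was measured on 15 single-colour Agilent arrays. For every spot, the files deposited hold its intensity and that of its background from Feature Extraction 10.7.3.1, not normalized across arrays, and other flags of that software (deposited with them) for spots well above background, saturated or outliers. The authors further deposited a table of log2 values after normexp and quantile normalization, which was used as an alternative. Gene names and mm9 positions are those of the scanner files.

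From the deposited intensity, the mean signal and the background median went through normexp with an offset of 50, then log2, and then quantile normalization across the 59305 spots that are not controls. Outlier spots (218 to 3692 per array) were set to missing, and no spot was saturated. Spots were averaged per probe, and probes were centred and averaged per symbol, with the mean level added back. Against the deposited table the median absolute difference of gene values was 0.00268. Arrays of 1 RNA code were averaged. Groups were compared with limma 3.58.1 in R 4.3.3 (1 fit over 3 groups, eBayes) and the Benjamini-Hochberg adjustment over 22032 genes, with a threshold of 0.05. This was tested on simulated data. Arrays have no read depth, and the number of livers limits the precision.

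The members and all gene lists were chosen with earlier results of these data known. The text names all 8 members, of each list the called genes (at most 6) or, where none was called, the 2 with the largest change, and the 10 genes most like Dbp by either r. Clock, Per1, Per2, Npas2, Chka and Mtnr1a, Arntl and Nr1d2 for further comparisons with Control, and the DEN minus Control values of Cyp2b10 and Cyp2a4 were named after their values were seen. Some genes of the lists are not reported here by name. The within-slide r was also added after seeing the data. The alternatives were other scalings, offsets, probe summaries, filters and tests, the slide or the replicate number in the fit, and leaving out livers.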

Additional observations from a re-analysis of the deposited data

Results flagged for a closer look

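Among 15 genes named in the text, each in the DEN and the Gas1 group, 2 of 30 sets of livers held 1 liver far from the others, with a gap to its neighbour above the 95% limit of Dixon's test. Chance marks about 1 in 20. Both were Bhlhe41, near the background. In the DEN group, liver 1 was low, at 5.93 where the others reached 6.23, and the gap took 0.903 of the range. In the Gas1 group, liver 3 was low, at 6.07 where the others reached 6.27, and the gap took 0.731 of the range. DEN 1, which had the least Dbp, Tef, Hlf and Usp2 and the most Nfil3 of its group, did not pass that limit for any of those genes.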

How the results depend on the processing

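The DEN minus Control difference of Dbp stayed between 3.48 and 4.54 on the log2 scale under 15 alternatives, beside 3.71, and between 3.44 and 4.31 with any 1 liver left out. Counts of calls moved more, and the cause was not tested. They are given in the order members, core clock, targets, other rhythmic, fasting and feeding, and glucocorticoid genes. For DEN minus Control they were 2, 2, 1, 1, 1 and 0, and became 4, 5, 3, 2, 1 and 6 with median scaling, 1, 1, 1, 0, 0 and 0 with cyclic loess, 1, 0, 0, 0, 0 and 0 with the processed signal, 5, 7, 3, 3, 2 and 2 with 15 arrays taken as livers, and 2, 4, 1, 2, 1 and 1 with the slide in the fit. With the filter on dim genes the last became 1. For Gas1 minus Control they were 2, 1, 0, 0, 1 and 0, and no call was left with median scaling or the processed signal, while cyclic loess left 1, Nr1d1. Core clock and fasting genes called were 2 and 2 with offset 16, 4 and 3 with 15 arrays, 3 and 2 with the slide and 3 and 2 with the filter, and fasting genes were 2 with the deposited table or the brightest probe. For Gas1 minus DEN no call became 1 target and 3 fasting genes with 15 arrays and 1 fasting gene with the slide. Members had no call for Gas1 minus DEN under any alternative.

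Without Control livers 1 and 2, no gene of these lists was called against Control, and the lone Control liver was assumed to vary like the other groups. The methods' t-test left no call after adjustment with equal or unequal variances. At an unadjusted p under 0.05 with equal variances it gave 4, 7, 3, 2, 1 and 1 for DEN minus Control, 6, 8, 1, 4, 4 and 3 for Gas1 minus Control and 0, 1, 2, 1, 5 and 1 for Gas1 minus DEN. By Welch these were 4, 5, 2, 2, 1 and 1, then 6, 5, 2, 5, 4 and 3, and then 0, 1, 3, 1, 4 and 0. With 1 liver left out, members called against Control were 0 to 2, core clock genes 0 to 3 (DEN) and 1 to 3 (Gas1), targets 0 to 2 and 0, other rhythmic genes 0 to 2 and 0, fasting genes 0 to 1 and 0 to 2 and glucocorticoid genes 0 to 2 and 0. For Gas1 minus DEN 1 target was called without DEN 1 and none of these lists otherwise. Arntl ranked 1 or 2 by negative r with Dbp with any 1 liver left out, 9 with median scaling and 4 within slides.

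The replicate numbers of the records did not pair the arrays. The deviations of 13 same-numbered pairs correlated between −0.31 and 0.27, only 4 of them over 0.1, and 7 of 26 arrays correlated best with their own number. With the number as a block in a fit of 15 arrays, the counts were 4, 7, 3, 3, 3 and 2 for DEN minus Control, 2, 5, 1, 1, 4 and 0 for Gas1 minus Control and 0, 0, 0, 0, 3 and 0 for Gas1 minus DEN.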

Other observations

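Other gene groups that change with the hour, with feeding or with stress were measured in the same livers. Of 12 other rhythmic liver genes, limma called none for Gas1 minus DEN or Gas1 minus Control. For Gas1 minus DEN the largest were Rgs16, a regulator of G protein signalling, at 1.67 (SE 0.45, adjusted p = 0.167) and Tspan4 at −0.48 (SE 0.26, adjusted p = 0.547). For Gas1 minus Control they were Rgs16 at 1.51 (SE 0.49, adjusted p = 0.207) and Elovl3, a fatty acid elongase, at −1.26 (SE 0.46, adjusted p = 0.26). At an unadjusted p under 0.05 the counts were 4 for DEN minus Control, 1 for Gas1 minus DEN and 4 for Gas1 minus Control, beside 20.2%, 10.8% and 13.3% of all genes.

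Of 10 fasting and feeding genes, Pdk4, a kinase that restrains glucose oxidation in fasting, fell by 1.84 (SE 0.41, limma adjusted p = 0.04) in DEN livers from Control. It was between 8.38 and 9.30 in Control, 6.43 and 7.54 in DEN and 6.96 and 8.68 in Gas1 livers, and the call was lost without any 1 of the Control livers, DEN 2, 3 or 4/5 or Gas1 1 (adjusted p up to 0.145), and with median scaling, cyclic loess, the processed signal or Control livers 1 and 2 left out (up to 0.519). No such gene was called for Gas1 minus DEN, where 5 had an unadjusted p under 0.05 beside 10.8% of all genes. The largest there were G6pc, of glucose release, at 1.31 (SE 0.42, adjusted p = 0.268) and Angptl4, a fasting-induced lipase inhibitor, at 1.23 (SE 0.26, adjusted p = 0.0962).

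Of 8 genes that respond to glucocorticoids, limma called none in any comparison. At a limma unadjusted p under 0.05 there were 3 for DEN minus Control, 2 for Gas1 minus DEN and none for Gas1 minus Control. The shares of all genes were the same as above. The mean was higher for 7 of 8 in DEN than in Control, 8 in Gas1 than in Control and 2 in Gas1 than in DEN. The median log2 differences were 0.39, 0.22 and −0.18 in that order, beside 0.01, −0.00 and −0.01 for all genes. The metallothioneins Mt1 and Mt2, which bind metals, had the largest differences, 3.75 (SE 1.09, adjusted p = 0.0854) and 4.07 (SE 1.13, adjusted p = 0.0735) for DEN minus Control. For Gas1 minus DEN they were −2.23 (SE 0.92, adjusted p = 0.408) and −2.83 (SE 0.96, adjusted p = 0.3), and for Gas1 minus Control 1.52 (SE 1.01, adjusted p = 0.564) and 1.24 (SE 1.05, adjusted p = 0.667). Mt1 lay between 8.90 and 9.58 in Control, 9.80 and 16.74 in DEN and 9.90 and 11.42 in Gas1 livers. Mt2 lay between 8.04 and 8.50, 9.19 and 16.41, and 9.13 and 9.92. The DEN livers were thus far more spread than the others, with SDs of 2.85 and 3.01.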
